A study of Mus musculus with 34 samples.

Results

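The glucocorticoid response genes comprised 10 genes of the 55385 listed in the count table, taken by their gene names: Fkbp5, Sgk1, Tsc22d3, Zbtb16, Errfi1, Cdkn1a, Hif3a, Mt1, Mt2 and Nr3c1. The first 9 are known targets of glucocorticoids in brain or other tissues, and Nr3c1 encodes the glucocorticoid receptor itself. Poly-A RNA of brain cortex was counted in 34 mice aged 6 months, 16 female and 18 male. Tofacitinib, an inhibitor of the Janus kinases below many cytokine receptors, was given at 15 mg/kg by gavage each day for 1 month to 4 5xFAD-Dp16, 5 5xFAD, 5 Dp16 and 5 wild-type mice. Sham mice received the 0.5% methylcellulose vehicle by the same route over the same time, and numbered 3 5xFAD-Dp16, 4 5xFAD, 3 Dp16 and 5 wild-type mice, so every mouse of the study was gavaged daily. Dp16 mice carry an extra copy of a segment of chromosome 16 that corresponds to much of human chromosome 21. 5xFAD mice carry human amyloid transgenes with familial Alzheimer's disease mutations under Thy1 sequences, which act in neurons, and 5xFAD-Dp16 mice carry both. The wild-type strain was labelled C57BL/6J, and no ungavaged or hormone-treated group was analysed here.

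Glucocorticoids, mainly corticosterone in mice, leave the adrenal gland in a daily rhythm and in pulses after stress, handling included. In the cell they bind the receptor Nr3c1, which leaves its chaperones, enters the nucleus and binds response elements made of a pair of inverted repeats, from which it switches target genes on or off. Fkbp5 is a co-chaperone that lowers the hormone affinity of the receptor and so forms a short feedback loop, and in brain it is among the most used readouts of recent exposure. The time of day of tissue collection and blood corticosterone were not given in the sources used here. In bulk RNA, fewer cells of a type and less RNA per cell cannot be told apart.

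Libraries held between 16029841 and 21388650 counts, 17632 genes had enough counts to be tested, and 10 of the 10 genes were among them. The genes lay on chromosomes 17 (Fkbp5 and Cdkn1a), 10 (Sgk1), X (Tsc22d3), 9 (Zbtb16), 4 (Errfi1), 7 (Hif3a), 8 (Mt1 and Mt2) and 18 (Nr3c1), so the duplicated segment of chromosome 16 held none of them. In CPM, which are counts set relative to the size of the library, Thy1 ranged from 1427 to 2572 in 5xFAD carriers, against 824 to 952 in non-carriers, so the transgene label held in every library. A pair of libraries, 5xFAD tofacitinib 2 and wild-type sham 2, lay far from the rest on the second principal component (7.29% of variance), at -49.5 and 66.9. On the first (13.8%) they were the lowest, at -45.7 and -47.1, but close to wild-type tofacitinib 1 (-43.9). Several results are given with and without this pair. Markers of excitatory neurons, astrocytes, oligodendrocytes, microglia and endothelium were present in all groups.

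Sequence before an annotated start of Sgk1, Mt1 and Mt2 is shown because these genes carried the strongest joint variation and the difference between genotypes described below. RefSeq sequences of build GRCm38.p6 were searched on both strands for the full glucocorticoid response element, read as AGAACA and TGTTCT with any 3 bases between them, and for the metal response element, the site of the zinc-sensing factor Mtf1, as TGCACNC or TGCGCNC. Windows ran from 250 bases before to 50 bases after each start of transcription, and 32851 windows of all genes served for the shares. The sequences are the 250 bases before a start, on the plus strand, with capitals for a full glucocorticoid element in Sgk1 and for metal elements in Mt1 and Mt2. The windows are chr10:21993640-21993889 for Sgk1, chr8:94178839-94179088 for Mt1 and chr8:94172368-94172617 for Mt2.
Sgk1: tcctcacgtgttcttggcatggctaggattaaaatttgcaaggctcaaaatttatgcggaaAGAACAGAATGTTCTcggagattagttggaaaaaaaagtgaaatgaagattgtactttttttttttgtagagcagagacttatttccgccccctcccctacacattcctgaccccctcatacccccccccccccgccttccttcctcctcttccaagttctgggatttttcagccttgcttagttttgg
Mt1: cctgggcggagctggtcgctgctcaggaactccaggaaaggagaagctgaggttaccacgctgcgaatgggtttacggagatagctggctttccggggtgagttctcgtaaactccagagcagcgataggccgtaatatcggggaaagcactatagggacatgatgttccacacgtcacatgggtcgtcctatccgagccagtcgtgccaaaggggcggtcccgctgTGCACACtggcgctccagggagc
Mt2: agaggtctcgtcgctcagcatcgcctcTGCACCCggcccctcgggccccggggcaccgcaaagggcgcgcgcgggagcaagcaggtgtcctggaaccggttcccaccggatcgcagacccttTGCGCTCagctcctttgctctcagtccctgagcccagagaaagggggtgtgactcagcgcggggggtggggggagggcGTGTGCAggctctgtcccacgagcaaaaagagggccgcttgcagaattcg
Of the 6 Sgk1 windows 1 held the full element, at -189 from the start, and only 3 of the 32851 windows (0.00913%) held it at all. Mt2 had 3 metal elements in these bases, at -223, -128 and -50, and Mt1 had 1, at -23. Each of these genes had 1 window, set by an annotated start, and other starts were not searched. The counts therefore describe these windows and do not compare the whole promoters of Mt1 and Mt2. After the start, in the rest of the windows, further ones stood at 2 and 20 in Mt1 and at 4 in Mt2. The A form TGCACNC stood in 10.4% and the G form TGCGCNC in 12.5% of all stretches of this length, and 1.26% held at least 3 of either form. Windows were used for 8 of the 10 genes, as Zbtb16 had none and Nr3c1 was left out of the search. The other windows used held no full glucocorticoid element, which says only that these letters are absent there. Mt2 (chromosome 8, 94172664 to 94173568) and Mt1 (94179082 to 94180327) are neighbours on the same strand in GENCODE M21 (GRCm38), 5514 bases apart, and their coding sequences are similar, so some reads may be split between them in a way the counting could not show.

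Per kilobase of gene length the metallothioneins were by far the most abundant of the genes, and Hif3a was the least abundant. Mt1 averaged 185 ± 30.2 RPKM and Mt2 137 ± 33.3 RPKM (SD, n = 34 for these and the following levels). Tsc22d3, a leucine zipper protein known as GILZ that mediates anti-inflammatory effects, averaged 33.4 ± 8.16 RPKM. Sgk1, a kinase of ion transport and cell survival, averaged 23.9 ± 9.10 RPKM, and its libraries, from 9.24 to 39.5 RPKM, overlapped those of Tsc22d3, from 20.01 to 54.1 RPKM. Nr3c1 followed with 17.0 ± 2.06 RPKM. Errfi1, an inhibitor of epidermal growth factor receptors, and Cdkn1a, the cell cycle inhibitor p21 that also responds to p53, did not differ beyond their spread, with 8.92 ± 1.33 and 8.63 ± 2.59 RPKM. Zbtb16, a zinc finger transcription factor, averaged 5.97 ± 1.92 RPKM and Fkbp5 4.29 ± 1.07 RPKM. Hif3a, a member of the hypoxia-inducible factor family, averaged 0.457 ± 0.246 RPKM, from 20 to 154 counts per library.

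The 10 genes differed in how far they ranged between mice. Hif3a spanned 7.66-fold between its lowest and its highest library, Zbtb16 5.62-fold, Sgk1 4.12-fold, Cdkn1a 3.01-fold and Tsc22d3 2.75-fold. Nr3c1 spanned 1.70-fold and Mt1 1.73-fold. After group and sex means were removed, the SD of log2 CPM was 0.67 for Hif3a and 0.53 for Sgk1, larger than that of 98.3% and 95.1% of the 14475 genes whose mean reached 1 CPM. The SD was 0.41 for Cdkn1a (larger than 87.8% of genes), 0.36 for Zbtb16 (82.7%), 0.32 for Fkbp5 (78.0%) and 0.31 for Tsc22d3 (76.1%). Mt2 (61.4%), Errfi1 (47.2%) and Nr3c1 (36.7%) lay nearer the middle, and Mt1 just below Nr3c1.

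**Figure D1:**
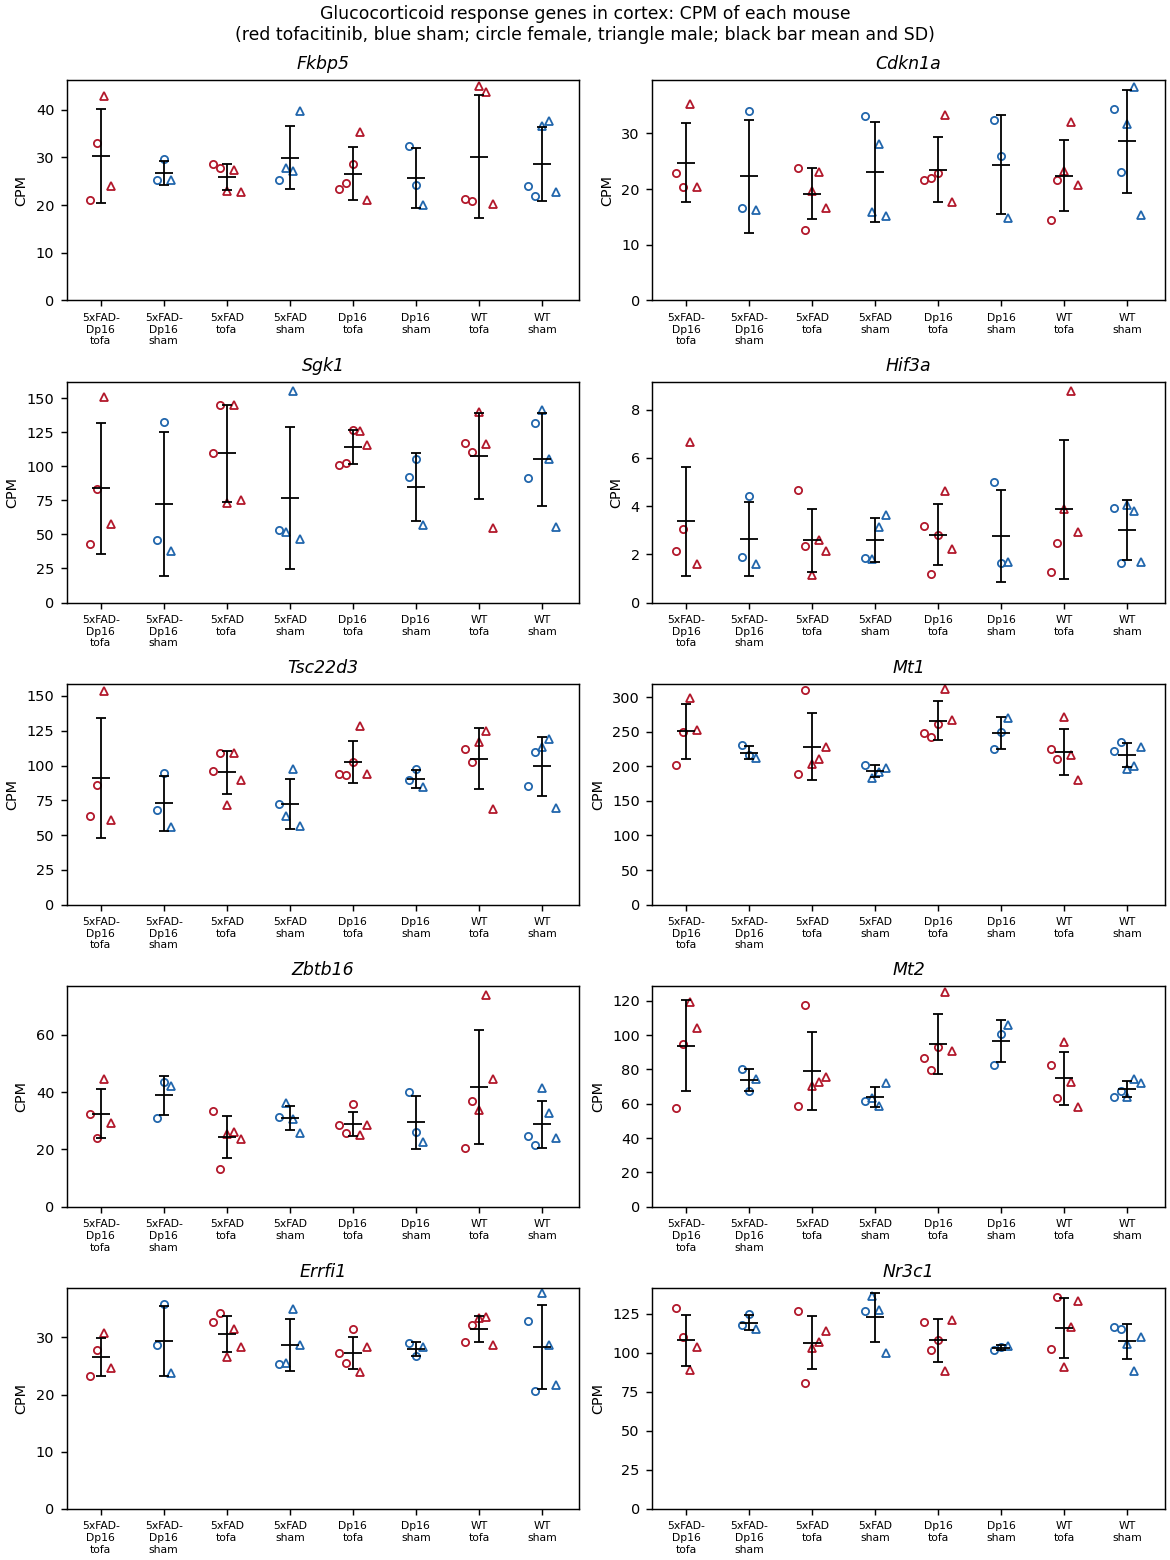
CPM of each of the 34 mice for the 10 genes, by genotype and treatment, with red points for tofacitinib, blue points for sham, circles for females, triangles for males, and black bars for the group mean and SD. Mt2 lies higher in Dp16 carriers, with 90.7 CPM on average against 72.0 CPM in non-carriers.

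Sgk1 shows how wide the spread inside groups was. In 5xFAD-Dp16 mice it had 42.9, 83.6, 151 and 57.8 CPM under tofacitinib, against 45.9, 133 and 37.7 CPM under sham. In 5xFAD mice it had 109.8, 145, 72.8, 145 and 75.3 CPM under tofacitinib, against 53.6, 51.9, 155 and 46.5 CPM under sham. In these carriers each sham group had 1 mouse far above its group mates, and treated and sham groups overlapped. In Dp16 mice it had 101, 102, 127, 126 and 115 CPM under tofacitinib, against 92.0, 105 and 57.2 CPM under sham. In wild-type mice it had 117, 110.4, 139.6, 117 and 54.6 CPM under tofacitinib, against 91.7, 132, 141, 106 and 55.4 CPM under sham. The low and high ends of the wild-type groups were nearly the same under both treatments.

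Tsc22d3 followed Sgk1 mouse by mouse. In 5xFAD-Dp16 mice it had 64.0, 85.8, 153 and 60.9 CPM under tofacitinib, against 67.9, 94.8 and 55.8 CPM under sham. In 5xFAD mice it had 96.1, 109, 71.4, 109 and 89.7 CPM under tofacitinib, against 72.5, 63.4, 97.5 and 56.6 CPM under sham. The third 5xFAD-Dp16 tofacitinib mouse and the third 5xFAD sham mouse, high for Sgk1, were also the highest of their groups for Tsc22d3. In Dp16 mice it had 93.7, 93.1, 103, 128 and 94.2 CPM under tofacitinib, against 89.3, 97.6 and 84.7 CPM under sham. In wild-type mice it had 112, 102, 117, 125 and 68.8 CPM under tofacitinib, against 85.3, 109.8, 113, 119 and 69.6 CPM under sham. Treated and sham groups overlapped in each genotype.

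Fkbp5, the co-chaperone of the receptor, split mice inside groups rather than between them. In 5xFAD-Dp16 mice it had 21.0, 33.1, 42.9 and 24.0 CPM under tofacitinib, against 25.2, 29.6 and 25.2 CPM under sham. In 5xFAD mice it had 28.5, 27.8, 23.0, 27.4 and 22.7 CPM under tofacitinib, against 25.3, 27.7, 27.1 and 39.8 CPM under sham. The highest of these mice, at 42.9 and 39.8 CPM, stood in a treated and in a sham group. In Dp16 mice it had 23.5, 24.5, 28.6, 35.4 and 21.1 CPM under tofacitinib, against 32.4, 24.3 and 20.1 CPM under sham. In wild-type mice it had 21.3, 20.9, 44.9, 43.7 and 20.2 CPM under tofacitinib, against 24.1, 22.0, 36.6, 37.6 and 22.8 CPM under sham. Both wild-type groups held 2 high mice and 3 low ones with a gap between them. The high mice, number 3 and 4 of either group, were male, as was number 5, which was low in either group.

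Nr3c1, the receptor, had the smallest fold between its highest and its lowest library of the 10 genes, at 1.70. In 5xFAD-Dp16 mice it had 129, 110.3, 89.2 and 104 CPM under tofacitinib, against 118, 125 and 116 CPM under sham. In 5xFAD mice it had 127, 80.7, 103, 107 and 114 CPM under tofacitinib, against 127, 137, 128 and 100.2 CPM under sham. The lowest value, 80.7 CPM, came from 5xFAD tofacitinib 2, which also had the lowest Zbtb16 (13.2 CPM) and Cdkn1a (12.7 CPM). In Dp16 mice it had 120.1, 102, 109, 88.6 and 121 CPM under tofacitinib, against 102, 104 and 105 CPM under sham. In wild-type mice it had 103, 136, 90.9, 117 and 133 CPM under tofacitinib, against 117, 115, 106, 88.7 and 110.1 CPM under sham. The treatments overlapped in each genotype, and the lowest 5xFAD-Dp16 sham value exceeded that of 3 of the 4 treated mice.

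The group means of Errfi1 ran from 26.6 ± 3.36 CPM in 5xFAD-Dp16 tofacitinib mice (SD, n = 4) to 31.4 ± 2.30 CPM in wild-type tofacitinib mice (SD, n = 5). Cdkn1a lay between 19.1 ± 4.59 CPM in 5xFAD tofacitinib mice (SD, n = 5) and 28.6 ± 9.26 CPM in wild-type sham mice (SD, n = 5). Hif3a lay between 2.58 ± 1.30 CPM in 5xFAD tofacitinib mice (SD, n = 5) and 3.87 ± 2.89 CPM in wild-type tofacitinib mice (SD, n = 5), and so did not separate any group. Zbtb16 lay between 24.3 ± 7.23 CPM in 5xFAD tofacitinib mice (SD, n = 5) and 41.9 ± 19.95 CPM in wild-type tofacitinib mice (SD, n = 5), with 73.9 CPM in 1 of the wild-type mice.

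Individual mice stood high or low for several of the genes together. 5xFAD-Dp16 tofacitinib 3 was the highest of the 34 libraries for Tsc22d3 and the 2nd highest for Sgk1, Cdkn1a, Hif3a and Mt2. Wild-type tofacitinib 4 was the highest for Hif3a (8.76 CPM) and Zbtb16 (73.9 CPM), the 2nd for Fkbp5 and the 3rd for Tsc22d3. At the other end, 5xFAD-Dp16 sham 4 was the lowest for both Sgk1 (37.7 CPM) and Tsc22d3 (55.8 CPM), and wild-type sham 5 was among the 8 lowest for 5 of the 6 genes Sgk1, Tsc22d3, Fkbp5, Hif3a, Errfi1 and Cdkn1a. High mice and low mice occurred under both treatments.

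This joint variation was measured by Pearson's r and Spearman's rho between deviations from group and sex means, each with a two-sided permutation test of 100000 resamples. Of the 45 pairs of the genes, 28 (62.2%) had an r past a Benjamini-Hochberg adjusted p of 0.05 over the 45 pairs, 22 positive and 6 negative. The smallest r among them was 0.39 in size, which 28.3% of all 104755575 pairs of the 14475 genes also reached, 14.3% positive and 14.1% negative. Genes are not independent replicates, and the 34 mice carry every pair.

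Sgk1 and Tsc22d3 had r = 0.90 and rho = 0.88 (permutation p = 1e-05 for each, the smallest possible, adjusted p = 0.000112). Without the 2 mice farthest from the median of Sgk1, r was 0.87. Fkbp5 and Hif3a had r = 0.75 and rho = 0.74 (permutation p = 1e-05 for each, adjusted p = 0.000112), and r = 0.75 without the 2 farthest mice. Sgk1 and Errfi1 had r = 0.64 and rho = 0.66 (permutation p = 3e-05 and 1e-05, adjusted p = 0.000169 and 0.000112), and r = 0.57 without the 2 farthest mice. Cdkn1a and Hif3a had r = 0.66 and rho = 0.65 (permutation p = 3e-05 and 4e-05, adjusted p = 0.000169 and 0.000225), and r = 0.62 without the 2 farthest mice.

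These 6 genes, Sgk1, Tsc22d3, Fkbp5, Hif3a, Errfi1 and Cdkn1a, formed a block chosen after their values were seen, and it is described without a test of its own. All 15 of its pairs were positive and past the adjusted threshold in the fit reported here, with r between 0.42 and 0.90 and a median of 0.55. The weakest, Errfi1 with Cdkn1a (r = 0.42, adjusted permutation p = 0.0235), is among the pairs whose passing is least sure. With any of the 34 libraries left out, r in the block stayed between 0.34 and 0.91, and at least 14 of the 15 pairs passed. With group and sex means kept in, Fkbp5 with Sgk1 (r = 0.35) and Errfi1 with Cdkn1a (r = 0.27) no longer passed.

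Zbtb16 was tied to the block through Cdkn1a and Hif3a. With Cdkn1a it had r = 0.67 and rho = 0.64 (permutation p = 3e-05 and 8e-05, adjusted p = 0.000169 and 0.0004), and r = 0.60 without the 2 farthest mice. With Hif3a it had r = 0.58 and rho = 0.45 (permutation p = 0.00027 and 0.00763, adjusted p = 0.00101 and 0.0156), and r = 0.44 without the 2 farthest mice. Its r was 0.16 with Sgk1 (adjusted p = 0.454) and 0.18 with Tsc22d3 (adjusted p = 0.400), so these pairs did not pass.

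The metallothioneins varied together, and few of their pairs with the block passed. Mt1 and Mt2 had r = 0.92 and rho = 0.86 (permutation p = 1e-05 for each, adjusted p = 0.000112), and r = 0.87 without the 2 farthest mice. Against Hif3a, Errfi1 and Cdkn1a their r lay between -0.17 and 0.09, and none of these 6 pairs passed. Against Zbtb16 they had r = -0.54 each (adjusted p = 0.00307 for Mt1 and 0.00282 for Mt2, permutation test). Tsc22d3 with Mt1 (r = 0.44, rho = 0.27) and with Mt2 (r = 0.42, rho = 0.30) passed on r but not on rho, and r was 0.28 and 0.27 without the 2 farthest mice, so both rest on those mice.

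The receptor ran against several of its targets. Nr3c1 and Mt2 had r = -0.81 and rho = -0.69 (permutation p = 1e-05 and 2e-05, adjusted p = 0.000112 and 0.00018), and r = -0.74 without the 2 farthest mice. Nr3c1 and Fkbp5 had r = -0.59 and rho = -0.62 (permutation p = 0.00024 and 0.00011, adjusted p = 0.000982 and 0.000495), and r = -0.60 without the 2 farthest mice. Nr3c1 and Mt1 had r = -0.67 and rho = -0.48 (permutation p = 3e-05 and 0.00493, adjusted p = 0.000169 and 0.0111), and r = -0.49 without the 2 farthest mice. Tsc22d3 and Nr3c1 had r = -0.41 and rho = -0.37 (adjusted permutation p = 0.0298 and 0.0598), and r = -0.27 without the 2 farthest mice. With Sgk1, Hif3a, Errfi1 and Cdkn1a the receptor had r between -0.32 and -0.02, and none of these pairs passed. Zbtb16 and Nr3c1 (r = 0.40, rho = 0.28) passed on r but not on rho, as did Fkbp5 and Mt2 (r = 0.39, rho = 0.33). Without the 2 libraries that lay far from the rest, r was -0.73 for Nr3c1 with Mt2, -0.55 for Nr3c1 with Mt1, -0.62 for Nr3c1 with Fkbp5, -0.39 for Zbtb16 with Mt1 and -0.41 for Zbtb16 with Mt2, and each of these passed.

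**Figure D2:**
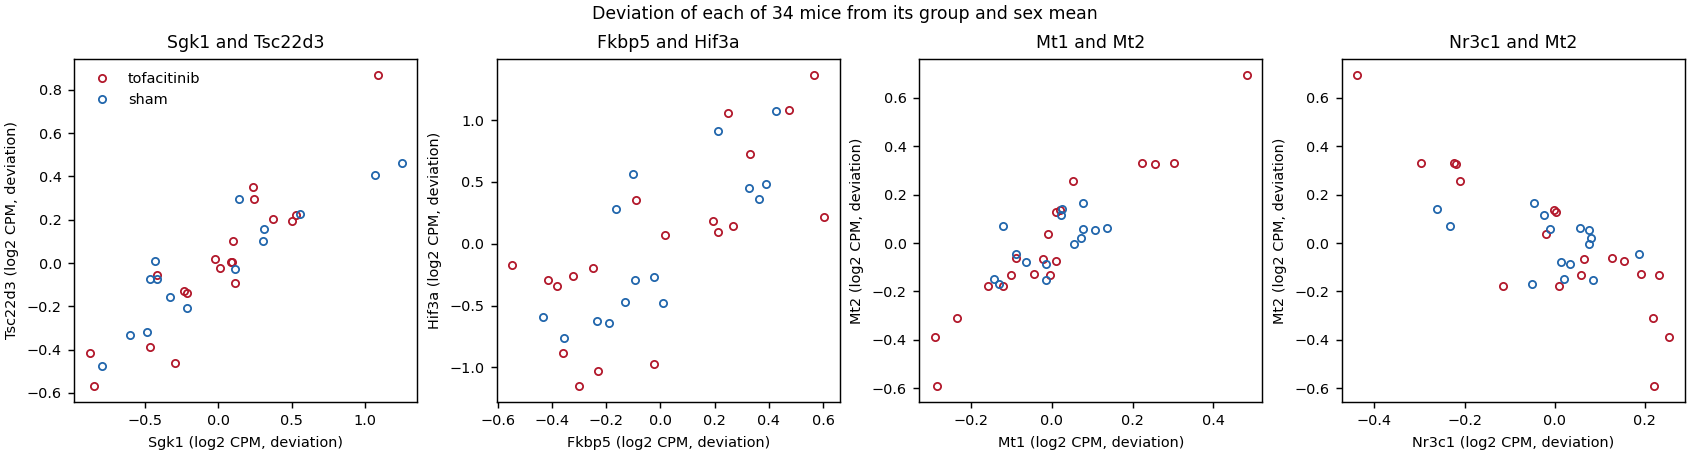
Deviation in log2 CPM of each of the 34 mice from its group and sex mean, for 4 pairs of genes, with red circles for tofacitinib and blue circles for sham. Sgk1 with Tsc22d3 (r = 0.90), Fkbp5 with Hif3a (r = 0.75) and Mt1 with Mt2 (r = 0.92) follow each other in mice of both treatments, and mice high in Nr3c1 are low in Mt2 (r = -0.81).

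Libraries also differed in the slope of log2 CPM, taken as deviations from each gene's mean, on the log2 of gene length, and some of the genes moved with it. Over the 34 mice this slope had r = 0.68 with Zbtb16, 0.61 with Nr3c1, -0.60 with Mt1 and -0.60 with Mt2 (adjusted permutation p = 0.0004, 0.000571, 0.0016 and 0.00133 in this order, over 200 relations of genes and library measures). The same slope had r = 0.03 with Fkbp5, -0.07 with Sgk1, -0.26 with Tsc22d3, 0.34 with Errfi1, 0.32 with Hif3a and 0.25 with Cdkn1a, none of which passed. When each library's length trend was removed, an alternative chosen after seeing the data, 23 pairs passed, 21 of them shared with the first count. The 15 pairs of the block passed again, with r between 0.42 and 0.90. Zbtb16 with Mt1 and Mt2 came to r = -0.04 each, Nr3c1 with Mt1 to -0.35 and Nr3c1 with Mt2 to -0.55, of which only the last passed. Zbtb16 with Nr3c1 came to 0.10, and Tsc22d3 came to -0.34 with Nr3c1, 0.27 with Mt1 and 0.21 with Mt2. None of these passed any longer. Nr3c1 with Fkbp5 came to r = -0.80, larger in size than before. The 2 pairs that passed only here were Errfi1 with Mt1, at r = 0.40 against 0.07 before (adjusted permutation p = 0.0382), and Errfi1 with Mt2, at r = 0.44 against 0.09 before (adjusted permutation p = 0.0220). Hif3a had r = 0.37 with Mt1 and 0.35 with Mt2 there, and neither passed.

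**Figure D3:**
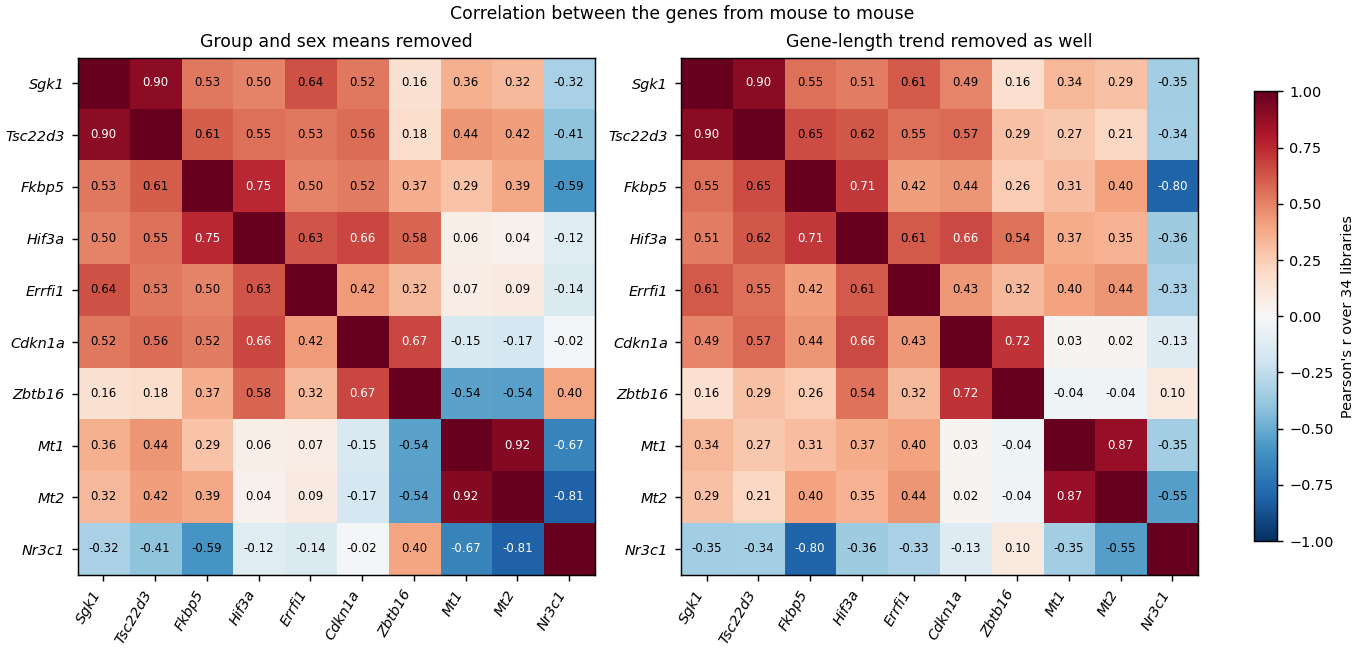
Pearson's r over 34 libraries for each pair of the 10 genes, with group and sex means removed at left and with each library's gene-length trend removed as well at right, from -1 (blue) to 1 (red). The block of 6 genes at the upper left is alike in both, while Zbtb16 with Mt1 and Mt2 is -0.54 at left and -0.04 at right.

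Cell type markers and clock genes moved with the receptor and the metallothioneins in the same libraries. Each list was taken as the mean of its genes' residual log2 CPM, each scaled to the same SD. Across mice the level of 8 excitatory neuron markers had r = 0.80 with Nr3c1, 0.68 with Zbtb16, -0.73 with Mt1 and -0.77 with Mt2 (adjusted permutation p = 0.0002 for each over the 200 relations, the smallest possible there). The level of 11 clock genes had r = 0.77 with Nr3c1, 0.67 with Zbtb16, -0.69 with Mt1 and -0.72 with Mt2 (adjusted permutation p from 0.0002 to 0.0004). Immediate early genes, which neuronal activity switches on, had r = 0.81 with Nr3c1, -0.59 with Fkbp5, -0.70 with Mt1 and -0.72 with Mt2 (adjusted permutation p from 0.0002 to 0.000636). On ranks the relation of immediate early genes with Mt1 did not pass (rho = -0.45, adjusted permutation p = 0.0538). Oligodendrocyte markers had r = 0.57 with Mt1, 0.47 with Mt2 and -0.50 with Zbtb16 (adjusted permutation p = 0.00572, 0.0397 and 0.0154 in this order), but r was 0.27, 0.11 and -0.31 without the 2 mice farthest from the median of those markers, so these relations rest on those mice. Striatal markers had r = -0.55 with Zbtb16 (adjusted permutation p = 0.00529), and r = -0.44 without the 2 farthest mice. Meninges and fibroblast markers had r = 0.45 with Mt1 and -0.45 with Nr3c1 (adjusted permutation p = 0.0407 and 0.0397), which came to 0.24 and -0.30 without the 2 farthest mice, and r = 0.41 with Mt2, which did not pass (adjusted permutation p = 0.0756). Choroid plexus markers had r = -0.44 with Nr3c1 (adjusted permutation p = 0.0459), and -0.22 without the 2 farthest mice. The share of counts from mitochondrial genes, a measure of RNA and tissue quality, had r = 0.48 with Mt1, 0.44 with Mt2 and -0.47 with Nr3c1 (adjusted permutation p = 0.0233, 0.0495 and 0.0306), and 0.43, 0.37 and -0.39 without the 2 farthest mice. The 8 astrocyte markers had r of 0.33 or less in size with each of the 10 genes, and none of those relations passed. The part of cell composition, activity, RNA quality or time of day in the joint variation was not tested.

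The genes were set against 20 other glucocorticoid targets from a fixed list. Their mean standardized level had r = 0.83 with Sgk1, 0.81 with Cdkn1a, 0.79 with Tsc22d3, 0.69 with Hif3a, 0.65 with Fkbp5, 0.62 with Errfi1 and 0.52 with Zbtb16 (adjusted permutation p between 0.0002 and 0.0112 over the 200 relations). It had r = 0.13 with Mt1, 0.09 with Mt2 and -0.16 with Nr3c1, none of which passed. Gene by gene, 14 of the 20 correlated positively with Cdkn1a past an adjusted p of 0.05 over 200 pairs (permutation test), 13 with Sgk1, 12 with Fkbp5, 12 with Tsc22d3, 11 with Errfi1, 9 with Hif3a, 8 with Zbtb16, 6 each with Mt1 and Mt2, and 3 with Nr3c1. Among 14465 other genes, the share with an r of 0.388 or more, the smallest called here, was 5.54% for Cdkn1a, 2.09% for Sgk1, 3.83% for Fkbp5, 3.55% for Tsc22d3, 5.21% for Errfi1 and 5.33% for Hif3a. That share was 23.2% for Zbtb16, 19.8% for Mt1, close to that of Mt1 for Mt2, and 23.3% for Nr3c1, so the 3 of 20 targets with Nr3c1 (15.0%) lay below the share of all other genes, and the counts with Zbtb16, Mt1 and Mt2 stood nearer to theirs than those of the first 6 genes. Negative pairs past the threshold numbered 8 with Nr3c1, 5 with Mt2 and 4 with Mt1, and at most 1 with any of the others. All other genes gave negative shares of 21.3% for Nr3c1, 22.6% for Mt2 and 23.1% for Mt1, beside the 8, 5 and 4 of 20 targets. Nfkbia, an inhibitor of NF-kappa-B, had r = 0.88 with Sgk1 and 0.81 with Tsc22d3. Ddit4, an inhibitor of mTOR signalling, had r = 0.77 with Sgk1 and 0.67 with Mt1. Klf9, a transcription factor induced by the hormone, had r = 0.79 with Zbtb16 but 0.10 with Fkbp5. Per1, a clock gene that is also a receptor target, had r = 0.63 with Cdkn1a and 0.55 with Sgk1, and Pdk4, a kinase of fuel use, had r = 0.55 with Cdkn1a and 0.15 with Fkbp5. Dusp1, a phosphatase that neuronal activity also induces, ran the other way, with r = -0.72 with Fkbp5 and 0.65 with Nr3c1.

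Among the 14465 other genes whose mean reached 1 CPM, the 8 with the highest mean r over the 10 genes were Slc2a1 (0.50), Tinagl1 (0.46), Adipor2 (0.46), Klf15 (0.45), Fzd4 (0.45), Cables1 (0.45), Rhou (0.44) and Arrdc2 (0.44), over 34 libraries. Slc2a1 encodes the glucose transporter of the blood-brain barrier, and Klf15 is a transcription factor. The gene with the highest r was Plekhf1 for Sgk1 (0.91), Jade2 for Zbtb16 (0.89), Lynx1 for Nr3c1 (0.88), Ntsr2 for both Mt1 (0.88) and Mt2 (0.86), Adipor2 for Tsc22d3 (0.84), Aff1 for Hif3a (0.80), Rin3 for Fkbp5 (0.79), Mphosph8 for Cdkn1a (0.77) and Smad1 for Errfi1 (0.73). These values describe likeness only, and carry no test.

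Tofacitinib was compared with sham to see what a month of Janus kinase inhibition changed. None of the 10 genes passed an edgeR adjusted p of 0.05 for the mean drug difference over the 4 genotypes, where 0% of all 17632 genes did (DESeq2 called 1 gene and limma-voom 0, none of them among the 10). At an unadjusted p under 0.05 stood 3 of the 10 genes, against 3.36% of all genes. Mt1 had 241 ± 39.2 CPM under tofacitinib (SD, n = 19) and 217 ± 23.5 CPM under sham (SD, n = 15), a log2 difference of 0.14 ± 0.06 (SE). Mt2 had 85.2 ± 20.8 CPM under tofacitinib and 73.9 ± 13.7 CPM under sham, a log2 difference of 0.19 ± 0.09 (SE). Tsc22d3 had 98.7 ± 23.5 CPM under tofacitinib and 85.1 ± 20.3 CPM under sham, a log2 difference of 0.24 ± 0.11 (SE). The edgeR adjusted p was 0.935 for each of these 3 genes, and the treatments overlapped over most of their range.

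The remaining genes lay closer to no drug difference or were less certain. Fkbp5 had 28.1 ± 8.13 CPM under tofacitinib and 28.0 ± 6.01 CPM under sham, and the 95% interval of its log2 difference ran from -0.23 to 0.26. That of Errfi1 ran from -0.13 to 0.17 and that of Nr3c1 from -0.17 to 0.09. Sgk1 had 105 ± 32.4 CPM under tofacitinib and 87.0 ± 40.1 CPM under sham, with an interval from -0.09 to 0.71. The interval ran from -0.43 to 0.18 for Cdkn1a, from -0.30 to 0.23 for Zbtb16 and from -0.37 to 0.69 for Hif3a. The median log2 difference was 0.08 over the 10 genes and 0.01 over all genes tested.

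Within genotypes the drug comparisons called none of the 10 genes, and 0% of all genes in any of them. An unadjusted p under 0.05 was reached by 0 of the 10 genes in 5xFAD-Dp16 mice (1.92% of all genes), 0 in 5xFAD mice (14.8%), 0 in Dp16 mice (2.05%) and 1 in wild-type mice (7.3%). DESeq2 called 0, 0, 1 and 2 genes in these comparisons in the same order, and limma-voom with sample weights called 0, 3038, 0 and 0. That 1 gene was Zbtb16, with 20.3, 36.9, 33.6, 73.9 and 44.5 CPM in wild-type tofacitinib mice, against 24.6, 21.4, 41.4, 32.7 and 24.0 CPM in wild-type sham mice. The groups overlapped, the log2 difference was 0.53 ± 0.24 (SE), and the edgeR adjusted p was 0.679.

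The drug response was then compared between genotypes. No gene was called for a different response in Dp16 carriers, and 0 of the 10 genes had an unadjusted p under 0.05 (0% and 2.33% of all genes). For a different response in 5xFAD carriers, 0% of genes were called, and 2 of the 10 genes and 14.5% of all genes had an unadjusted p under 0.05. These were Zbtb16 and Nr3c1. Their log2 drug difference in 5xFAD carriers minus that in non-carriers was -0.54 ± 0.26 and -0.27 ± 0.13 (SE), with edgeR adjusted p of 0.345 and 0.344. Limma-voom with sample weights called both, along with 3771 genes in all.

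**Figure D4:**
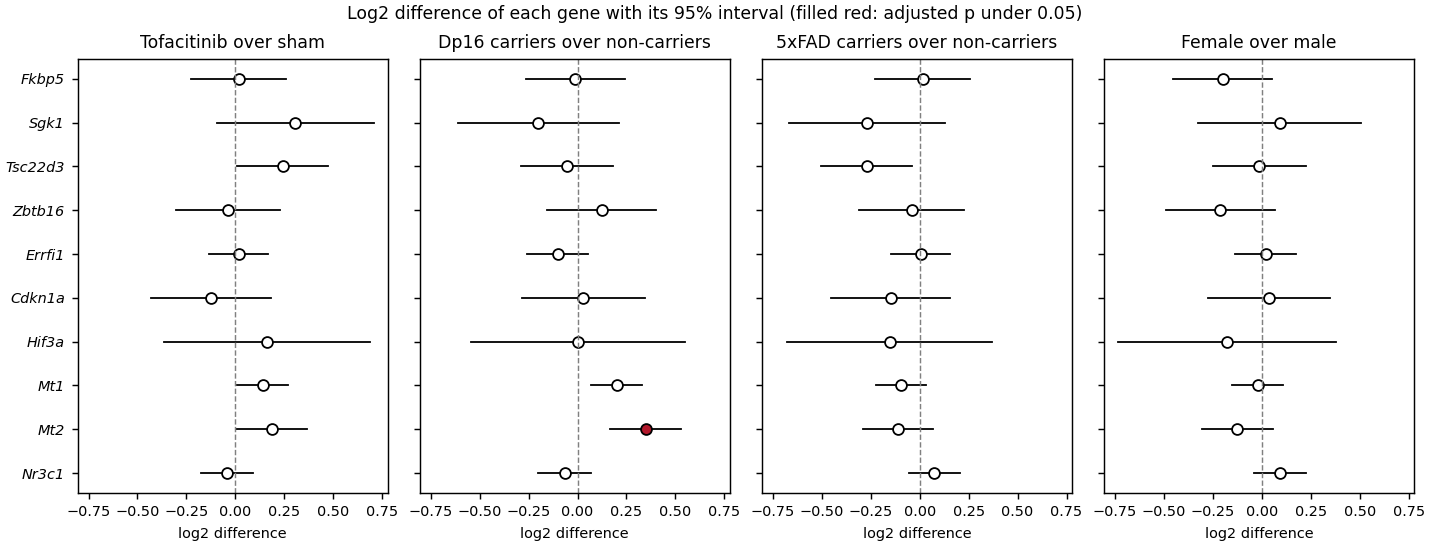
Log2 difference of each of the 10 genes with its 95% interval for tofacitinib over sham, Dp16 carriers over non-carriers, 5xFAD carriers over non-carriers and females over males, from 1 fit of 34 libraries, with a filled red point for an adjusted p under 0.05. Mt2 in Dp16 carriers (0.35) is the one filled point.

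Carriers of the duplicated segment had more Mt2 RNA, a metallothionein transcript, than non-carriers. Dp16 carriers, which are Dp16 and 5xFAD-Dp16 mice under either treatment, were compared with 5xFAD and wild-type mice, and 1 of the 10 genes was called, while 2.14% of all genes were called and 1.17% called higher. Metallothioneins bind zinc and copper, and answer to metals as well as to glucocorticoids. In Dp16 mice Mt2 had 86.6, 79.9, 92.8, 125 and 90.8 CPM under tofacitinib, against 82.5, 101 and 106 CPM under sham. In wild-type mice it had 82.8, 63.4, 96.1, 72.9 and 58.3 CPM under tofacitinib, against 64.2, 67.2, 64.0, 74.6 and 72.0 CPM under sham. Among sham mice the Dp16 and wild-type values did not overlap, but the difference was not called (edgeR adjusted p = 0.442). The share of all genes without overlap in so few mice was not counted.

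In 5xFAD-Dp16 mice Mt2 had 57.2, 94.8, 119 and 104 CPM under tofacitinib, against 80.0, 67.2 and 74.3 CPM under sham. In 5xFAD mice it had 58.6, 118, 70.5, 72.9 and 75.8 CPM under tofacitinib, against 61.9, 63.4, 58.8 and 72.1 CPM under sham. The highest value of the 5xFAD group came from 5xFAD tofacitinib 2, a library that stands apart. Over all mice Mt2 averaged 90.7 ± 18.5 CPM in Dp16 carriers (SD, n = 15) and 72.0 ± 14.4 CPM in non-carriers (SD, n = 19). Of the 15 carriers, 13 exceeded the median of the non-carriers (70.5 CPM), and 2 of the 19 non-carriers exceeded the median of the carriers (90.8 CPM). The log2 difference was 0.35 ± 0.09 (SE, 1.27-fold, edgeR adjusted p = 0.0307).

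The carrier difference is the equal-weight mean of 4 strata from the same fit, so the strata break it down and add no separate support. The Mt2 difference had the same sign in each of these strata, which share no libraries with each other. It was 0.26 ± 0.20 for 5xFAD-Dp16 over 5xFAD under sham, 0.24 ± 0.17 for the same under tofacitinib, 0.53 ± 0.18 for Dp16 over wild-type under sham and 0.37 ± 0.16 for the same under tofacitinib (log2 ± SE). None of these was called (edgeR adjusted p = 0.9998, 0.792, 0.442 and 0.535), where 0.102%, 0.238%, 0.21% and 0.25% of all genes were called. The 3 strata other than Dp16 over wild-type under sham were added after seeing the data. Without 5xFAD tofacitinib 2 and wild-type sham 2 the difference in all carriers was 0.43 (adjusted p = 0.000736), and Mt1 was called as well (0.27). The call was lost with replicate number as a block (0.32, adjusted p = 0.108) and without any single one of 9 libraries, where it lay between 0.31 and 0.36: wild-type tofacitinib 2, 5xFAD sham 3, Dp16 sham 2, Dp16 sham 3, Dp16 tofacitinib 4, 5xFAD-Dp16 sham 1, 5xFAD-Dp16 sham 4, 5xFAD-Dp16 tofacitinib 3 and 5xFAD-Dp16 tofacitinib 4 (adjusted p from 0.0505 to 0.0806). With the gene-length trend removed it was 0.28 (adjusted p = 0.0483).

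In Dp16 mice Mt1 had 248, 242, 262, 312 and 267 CPM under tofacitinib, against 225, 250.1 and 269 CPM under sham. In wild-type mice Mt1 had 225, 210.3, 272, 217 and 180.3 CPM under tofacitinib, against 222, 235, 197, 199.7 and 228 CPM under sham. Most Dp16 mice lay above most wild-type mice, with overlap under both treatments. In 5xFAD-Dp16 mice Mt1 had 202, 249, 298 and 252 CPM under tofacitinib, against 231, 216 and 212 CPM under sham. In 5xFAD mice Mt1 had 189, 311, 203, 211 and 228 CPM under tofacitinib, against 201, 182, 192 and 197 CPM under sham. The sham values of these 5xFAD carriers did not overlap, and the tofacitinib values did. The sham difference was not called, and the share of all genes without overlap in so few mice was not counted. Mt1 averaged 249 ± 30.4 CPM in Dp16 carriers (SD, n = 15) and 216 ± 31.6 CPM in non-carriers (SD, n = 19), a log2 difference of 0.20 ± 0.06 (SE, edgeR adjusted p = 0.106). Mt1 and Mt2 were the 2 of the 10 genes with an unadjusted p under 0.05, against 13.7% of all genes. The other 8 genes had log2 differences between -0.20 (Sgk1) and 0.12 (Zbtb16), and the median over the 10 was -0.01, against 0.00 over all genes tested. The 95% interval of Fkbp5 ran from -0.27 to 0.24 and that of Nr3c1 from -0.20 to 0.07.

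Other genes of the pathway and markers gave the setting of this difference in Dp16 carriers. Of the 20 other glucocorticoid targets 1 was higher and 0 lower, with a median log2 difference of -0.04. The higher gene was Fam107a, an actin-binding stress response gene, with 975 ± 148 CPM in carriers and 823 ± 125 CPM in non-carriers (log2 0.27 ± 0.07 SE, edgeR adjusted p = 0.0291). Per1 (-0.25), Ddit4 (-0.16), Nfkbia (-0.15), Klf9 (-0.12) and Pdk4 (0.00) were not called (adjusted p from 0.444 to 0.998). Of 11 receptor partners, Nrip1, a corepressor that lies on chromosome 16 in the duplicated segment, was higher (0.56, adjusted p = 0.000102), and Hsp90ab1, a chaperone of the receptor, was lower (-0.14, adjusted p = 0.0405). Of 11 clock genes, Dbp (-0.28) and Cry1 (-0.26) were lower, and of 5 other genes of metal and zinc handling none was called.

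Markers of astrocytes, a main source of metallothioneins in brain, and of other cells were measured in the same mice. Of 8 astrocyte markers 0 were higher and 1 was lower, Slc7a10 (-0.25), and their summed level ran from 6070 to 8251 CPM in carriers, against 5701 to 8416 CPM in non-carriers. Of 8 oligodendrocyte markers 2 were lower, Cnp (-0.25) and Ermn (-0.39), with summed levels from 5564 to 9844 CPM in carriers, against 5796 to 14166 CPM in non-carriers. Cdh5 of 8 endothelial markers (-0.27) and P2ry12 of 8 microglial markers (-0.21) were lower too. The summed level of 8 excitatory neuron markers ran from 1429 to 2108 CPM (median 1801) in carriers, against 673 to 2336 CPM (median 1933) in non-carriers. Of 6 meninges and fibroblast markers 0 were called, but 6 lay above 0, with a median log2 difference of 0.32, and their summed level ran from 26.4 to 59.99 CPM (median 41.2) in carriers, against 18.1 to 76.7 CPM (median 30.4) in non-carriers. Of 8 striatal markers 0 were called and 0 lay above 0, with a median log2 difference of -0.59 and summed levels from 333 to 1689 CPM (median 699.7) in carriers, against 469.5 to 2285 CPM (median 1172) in non-carriers. Of 8 immediate early genes 0 were called and 1 lay above 0, with a median log2 difference of -0.23 and summed levels from 592 to 1324 CPM (median 863) in carriers, against 219 to 1687 CPM (median 1244) in non-carriers. The median log2 difference over all genes tested was 0.00. The part of these shifts in the Mt2 difference was not tested.

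5xFAD carriers were compared with non-carriers, and 0 of the 10 genes were called, against 0.42% of all genes (an unadjusted p under 0.05 had 1 of the 10 genes and 20.3% of all genes). That gene was Tsc22d3, with 84.2 ± 25.8 CPM in 5xFAD carriers (SD, n = 16) and 100.3 ± 17.3 CPM in non-carriers (SD, n = 18), a log2 difference of -0.27 ± 0.11 (SE, edgeR adjusted p = 0.183). Without 5xFAD-Dp16 tofacitinib 3, the library with the highest Tsc22d3, it was -0.37 and called (adjusted p = 0.0484). Sgk1 had 87.9 ± 44.2 CPM in carriers and 105 ± 26.9 CPM in non-carriers, a log2 difference of -0.27 with an interval from -0.67 to 0.13. Fkbp5 (0.01) and Errfi1 (0.00) lay near 0, with intervals from -0.23 to 0.26 and from -0.15 to 0.16. DESeq2 and limma-voom called none of the 10 genes here either. Of the 20 other glucocorticoid targets none was called, and among the listed markers only Csf1r of microglia was (0.31, adjusted p = 0.0378).

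Among sham mice alone, none of the 10 genes was called in any genotype. The share of all genes called was 0.363% for 5xFAD-Dp16, 0.017% for 5xFAD and 0.21% for Dp16, each against the same 5 wild-type mice. At an unadjusted p under 0.05 stood 0, 1 and 1 of the 10 genes, against 14.9%, 24.8% and 7.27% of all genes. They were Tsc22d3 in 5xFAD mice (log2 -0.46 ± 0.22 SE, edgeR adjusted p = 0.191) and Mt2 in Dp16 mice, given above. The count of all genes called in 5xFAD against wild-type sham mice changed from 3 here to 1293 with DESeq2 and 2806 with limma-voom, but neither called any of the 10 genes in any of the sham comparisons. Departure from additivity of both lesions was called for 0.00567% of genes and 0 of the 10, with an unadjusted p under 0.05 for 4.35% and for 1, Zbtb16 (log2 0.59 ± 0.26 SE, adjusted p = 0.995).

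Females and males did not differ past the threshold in any of the 10 genes, against 0.0624% of all genes, and 0 of the 10 had an unadjusted p under 0.05 (5.53% of all genes). Fkbp5 averaged 25.8 ± 3.87 CPM in females (SD, n = 16) and 30.1 ± 8.78 CPM in males (SD, n = 18), a log2 difference of -0.20 with an interval from -0.45 to 0.05. Zbtb16 averaged 29.2 ± 7.84 CPM in females and 33.9 ± 12.4 CPM in males, with an interval from -0.49 to 0.07. DESeq2 and limma-voom called none of the 10 genes between the sexes either.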

How the data were processed

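The whole-number counts per gene and mouse in the deposited table were made by the authors from poly-A, strand-specific, paired-end libraries on build GRCm38; per the submitters' processing notes the tools included HTSeq 0.6.1, HISAT2 2.1.0, SAMtools 1.5 and FastQC 0.11.5, whose roles and strand setting are not given in the sources used here. RPKM values in the deposited table were the authors' counts scaled by gene length and library total, and recomputing them from the counts gave relative differences of at most 9.1e-15. Both tables listed 34 mice; the series text gives 1 more mouse each for 5xFAD tofacitinib and 5xFAD-Dp16 sham, not analysed here.

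Counts were fitted with edgeR 4.0.16 in R 4.3.3: filterByExpr, TMM scaling, and a two-sided quasi-likelihood test in 1 fit of 34 libraries with terms for 8 groups and sex. A gene was called where its p, adjusted by Benjamini-Hochberg over 17632 genes within a comparison, was under 0.05. Of 17 comparisons, 3 were added after seeing the data. Carrier comparisons averaged over the other factors with equal weights. CPM used TMM-scaled totals and a prior count of 2 on the log2 scale. Correlations used residual log2 CPM after group and sex means, permuted 100000 times (numpy 2.4.6). The fit and the permutation test were run on simulated data with known changes and correlations, with only a loose limit on false calls. The genes and the 17 lists (140 genes) were chosen with earlier results of these data known. Named were all 10 genes, the 8 other genes most like them by mean r, the most like for each, listed genes called in a comparison (up to 4 each), and Per1, Klf9, Nfkbia, Ddit4 and Pdk4. Genes outside this rule, among them Dusp1 and Thy1, were chosen after their values were seen. Alternatives were DESeq2 1.42.0, limma-voom (limma 3.58.1), other scalings, filters and terms, and left-out libraries. Each p measures the spread between mice, and depth limits chiefly Hif3a.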

Additional observations from a re-analysis of the deposited data

Results flagged for a closer look

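In 5 of 60 sets of values, which are 10 genes in the 6 groups with 4 or 5 mice, a mouse lay farther from its group mates than Dixon's 95% limit allows, and chance gives about 1 in 20. Fkbp5 had 39.8 CPM in 5xFAD sham 4, against 25.3 to 27.7 CPM in the other mice of its group. Sgk1 had 155 CPM in 5xFAD sham 3, against 46.5 to 53.6 CPM in its group mates. Tsc22d3 had 128 CPM in Dp16 tofacitinib 4, against 93.1 to 103 CPM, and Mt2 had 125 CPM in the same mouse, against 79.9 to 92.8 CPM. Cdkn1a had 35.3 CPM in 5xFAD-Dp16 tofacitinib 3, against 20.4 to 22.9 CPM in its group mates. Without Dp16 tofacitinib 4 the Mt2 difference between Dp16 carriers and non-carriers was 0.32 on the log2 scale and was no longer called (edgeR adjusted p = 0.0636). Dp16 tofacitinib 4 also had the lowest slope of log2 CPM on log2 gene length of the 34 libraries (-0.16), and the part of that in its values was not tested.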

How the results depend on the processing

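In Dp16 carriers 1 of the 10 genes was called; 2 were called with limma-voom, without a low-count filter and without the 2 libraries that stand apart (Mt1 and Mt2 each time), and 0 with a replicate block. Left-out libraries gave 0 to 2 calls there and 0 to 1 in 5xFAD carriers. Without a low-count filter, calls went from 0 to 2 in 5xFAD carriers, 2 for the mean drug difference, 1, 2 and 3 for Dp16, 5xFAD and 5xFAD-Dp16 against wild-type sham, 1 and 2 for the drug in wild-type and 5xFAD mice, and 1 each for 5xFAD by drug and Dp16 by 5xFAD. Limma-voom called 2 genes for 5xFAD by drug. The cause of these shifts was not tested. No called result changed sign in any alternative; of the 128 uncalled differences with an unadjusted p of 0.05 or more, 69 changed sign in at least 1. The 28 correlated pairs became 22 with group and sex terms kept, 23 with the gene-length trend removed, 23 with the replicate block, and 23 to 31 with a library left out. In every group females held the lower replicate numbers, so the replicate block overlaps with the sex term. Same-numbered mice had a median r of -0.04 (98 pairs, 5 over 0.1), other mice 0.01 (405 pairs, 63 over 0.1). All-gene calls also moved by over 1.5 times: in Dp16 carriers from 378 to 1760 with limma-voom, 672 without the filter, 669 without the 2 libraries and 206 with the block; in 5xFAD carriers from 74 to 384 with DESeq2, 589 with limma-voom, 1358 without the filter, 123 with the length trend removed and 17 with the block; in 5xFAD against wild-type sham from 3 to 1293 with DESeq2, 2806 with limma-voom, 1784 without the filter, 468 without a sex term, 1428 with these groups alone, 210 with the length trend removed, and 1 to 1981 with a library left out. In 5xFAD-Dp16 against wild-type sham they moved from 64 to 147 with DESeq2, 685 with limma-voom and 873 without the filter, and in Dp16 against wild-type sham from 37 to 63 with DESeq2 or limma-voom, 158 without the filter and 6 with these groups alone. Between sexes they moved from 11 to 27 with DESeq2, 18 with limma-voom, 84 without the filter and 5 with the block. For the drug they moved from 0 to 51 (mean of genotypes), 50 (wild type), 31 (Dp16), 642 (5xFAD) and 93 (5xFAD-Dp16) without the filter, and to 3038 in 5xFAD mice with limma-voom. The 5xFAD by drug term moved from 0 to 675 without the filter and 3771 with limma-voom. With a library left out, all-gene calls ran from 15 (without Dp16 sham 2) to 293 (without wild-type sham 3) in 5xFAD carriers, from 24 (without 5xFAD-Dp16 sham 2) to 97 (without 5xFAD tofacitinib 1) in 5xFAD-Dp16 against wild-type sham, from 23 (without Dp16 sham 2) to 43 in Dp16 against wild-type sham, from 263 to 541 in Dp16 carriers, from 0 to 352 (without 5xFAD tofacitinib 1) for the drug in 5xFAD mice and from 0 to 2 for the drug in wild-type mice. The highest count in 5xFAD against wild-type sham came without wild-type sham 3. Depth limits chiefly Hif3a.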
